A study of Aspergillus luchuensis with 9 samples.

Results

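The control strain of Aspergillus luchuensis mut. kawachii was described from its 3 RNA-seq libraries, out of 9 libraries in the series. The libraries were taken as those whose genotype label reads control. All 12941 genes of the deposited table were ranked by their mean value over these 3 libraries, and the deletion strains were not compared. The table held 12662 protein-coding genes, 267 tRNA genes and 12 rRNA genes on 8 chromosomes and in the mitochondrial genome, which has 44 of these genes. The reference gave a symbol to 2243 genes, so most genes are named by locus tag. The strain label was mut. kawachii for every library. The growth medium, the culture time and any allele of the control beyond its label are not given in the sources used here. Nothing in the labels says that the 3 replicates were separate cultures, so the SDs below measure only the spread between these libraries.

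Aspergillus luchuensis mut. kawachii is the white koji mould used to make shochu. Koji moulds are known for secreting amylases and acid-stable proteases that break down grain, and the white koji mould for releasing citric acid. In growing fungal hyphae a large part of the messenger RNA usually encodes ribosomal proteins and enzymes of central metabolism. Genes for spore formation and for secondary metabolites are often silent until a developmental or nutritional signal arrives, and many of the latter lie in clusters.

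Values are FPKM, in which fragments are divided by the length of the transcript and by the fragments of that library. They are meant to allow levels to be compared between genes per length. The FPKM sums of replicates 1, 2 and 3 were 1495387, 1493112 and 1556087. Steps among low values put the depth of replicate 1 at 0.939 and that of replicate 2 at 0.842 of replicate 3. In a gene of 1 kb, 3 fragments correspond to 0.829, 0.921 and 0.794 FPKM in replicates 1, 2 and 3, so levels under about 1 FPKM rest on very few fragments. Across genes, which are not independent replicates, Pearson's r of log2(FPKM + 1) was 0.956 between replicates 1 and 2, 0.973 between 1 and 3, and 0.974 between 2 and 3. Of 9706 genes with a mean of at least 1 FPKM, replicate 1 lay more than 2-fold above or below both other libraries in 797 (on the FPKM + 1 scale), replicate 2 in 614 and replicate 3 in 219. By this count replicate 1 stood furthest from the others.

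The most abundant transcript came from AKAW2_50053A, a protein-coding gene of 513 bases on chromosome 5 (172795 to 173307, minus strand, in the files' coordinates) with no symbol. Its level was 24304, 37536 and 36106 FPKM in replicates 1, 2 and 3, a mean of 32649 ± 7262 FPKM (SD, n = 3). Replicate 1 was the lowest, and this gene alone held 2.16% of the mean FPKM sum. AKAW2_40061A on chromosome 4 (148986 to 149457, 472 bases) followed with 25405, 20986 and 32808 FPKM. The third was RPL39, a protein of the large ribosomal subunit, with 24993, 24629 and 26198 FPKM (mean 25273 ± 821). The fourth was AKAW2_60529A on chromosome 6 (1254 bases) with 25778, 21535 and 24088 FPKM. The ranges of AKAW2_40061A, RPL39 and AKAW2_60529A overlapped, so the order among these genes is not larger than the spread between libraries. AKAW2_50053A lay above all of them in replicates 2 and 3, but below each of them in replicate 1.

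Ranks 5 to 10 were also genes without a symbol. AKAW2_11660A on chromosome 1 stood at 12166, 25025 and 19123 FPKM, lowest in replicate 1. AKAW2_70555S and AKAW2_70972S on chromosome 7 had means of 17709.5 ± 3121 and 16839 ± 3665 FPKM. AKAW2_20858S on chromosome 2, only 267 bases long, had a mean of 13743 ± 4064 FPKM. AKAW2_10485S (11490.3 ± 1843 FPKM) and AKAW2_40642S (10287 ± 3065 FPKM) completed the first 10. In 5 of these 6 genes, all but AKAW2_10485S, replicate 1 held the lowest value.

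The 25 most abundant genes comprised 20 protein-coding genes and 5 rRNA genes, and 14 of the protein-coding genes had no symbol. EGD1, named after a yeast subunit of the complex that binds nascent polypeptides at the ribosome, stood at 10011, 9146 and 10659 FPKM. RPL32, another large-subunit protein, stood at 6813, 7735 and 8409 FPKM. CYC1, cytochrome c of the respiratory chain, stood at 3920, 9828 and 7321 FPKM, and replicate 1 was far below the others. LSM3, an Sm-like protein of RNA processing and decay in yeast, stood at 8085, 5813 and 6917 FPKM. The neighbours AKAW2_61343A and AKAW2_61344A on chromosome 6, which lie 1570 bases apart on the same strand, were both among the 25, with means of 8991 ± 1346 and 7910.1 ± 915 FPKM. Of the 25 genes, 21 were among the first 25 of every library, and none overlapped the span of another gene.

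**Figure D1:**
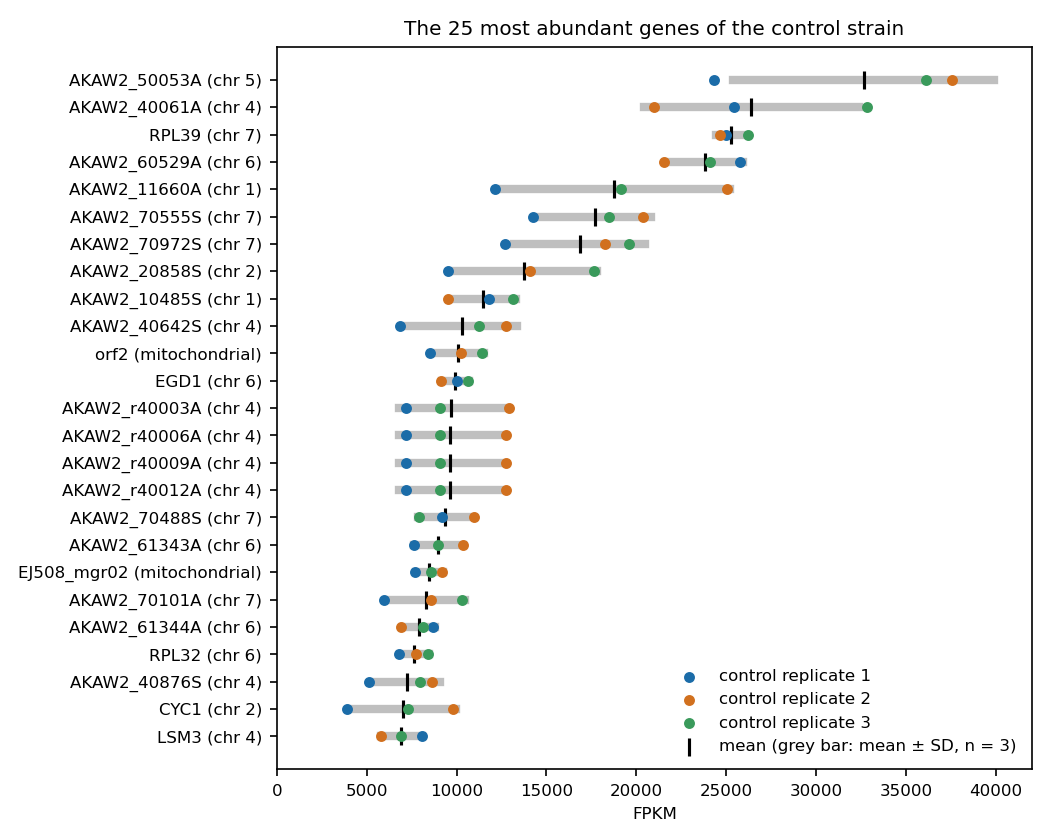
FPKM (linear axis) of the 25 genes with the highest mean over the 3 control libraries, in order of mean; points are single libraries, black ticks the mean and grey bars the mean ± SD (n = 3). The first 4 genes have means from 23800.2 to 32649 FPKM, and replicate 1 is the lowest point for AKAW2_50053A, AKAW2_11660A and CYC1.

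Expression was concentrated in few genes. The 10 most abundant genes of each library held 11.4%, 13.9% and 14.05% of the FPKM sum in replicates 1, 2 and 3, and the 100 most abundant held 35.8%, 43.2% and 41.5%. Ranked by the mean, the first 25 held 21.6%, the first 100 held 39.9% and the first 1000 held 76.9% of the sum. The number of genes that together held 50% of the sum was 239 in replicate 1, 154 in replicate 2 and 170 in replicate 3. Replicate 1 was the least concentrated; ranked by the mean, 189 genes held 50% with it and 163 without it. At the other end, 9706 genes had a mean of at least 1 FPKM, 2036 (15.7%) at least 100 FPKM and 257 (1.99%) at least 1000 FPKM. Those 257 genes held 55.1% of the sum, and the 11 genes above 10000 FPKM held 13.7%.

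The most abundant genes were short. Among the 20 protein-coding genes of the first 25, 18 were under 1000 bases, with a median of 516.5 bases against 1305 over all protein-coding genes. Among the 90 protein-coding genes of the first 100, 74 were under 1000 bases. Lengths of these genes are genomic spans, introns included. Genes of 300 to under 500 bases were 9.06% of all protein-coding genes but held 15.7% of the FPKM sum, and those of 500 to under 1000 bases were 22.9% of them and held 41.3%. Genes of 4000 bases or more held 0.434%. Short genes were also those most often without any signal, since 63.0% of genes under 300 bases were listed at 0 in all 3 libraries against 4.71% of genes of 1000 to under 2000 bases. Some very short genes were above 0 in a single library. In a gene of 300 bases, 3 fragments correspond to 2.76, 3.07 and 2.65 FPKM in replicates 1, 2 and 3, and to more in shorter genes. AKAW2_80180A (153 bases) stood at 0, 69.8 and 0 FPKM and AKAW2_40513A (159 bases) at 0, 53.0 and 0 FPKM. AKAW2_60647A (177 bases) stood at 23.7, 0 and 0 FPKM and AKAW2_61190S (165 bases) at 0, 0 and 25.7 FPKM. How far the division by length raises the values of short genes was not tested. Each FPKM was also multiplied by gene length, here the genomic span. The length by which the values had been divided is not given, so this product is only a rough stand-in for a share of fragments. With this weighting 17 of the 25 genes remained among the first 25. On that scale AKAW2_60529A came first and RPL39 second, and 303 genes held 50% of the sum.

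**Figure D2:**
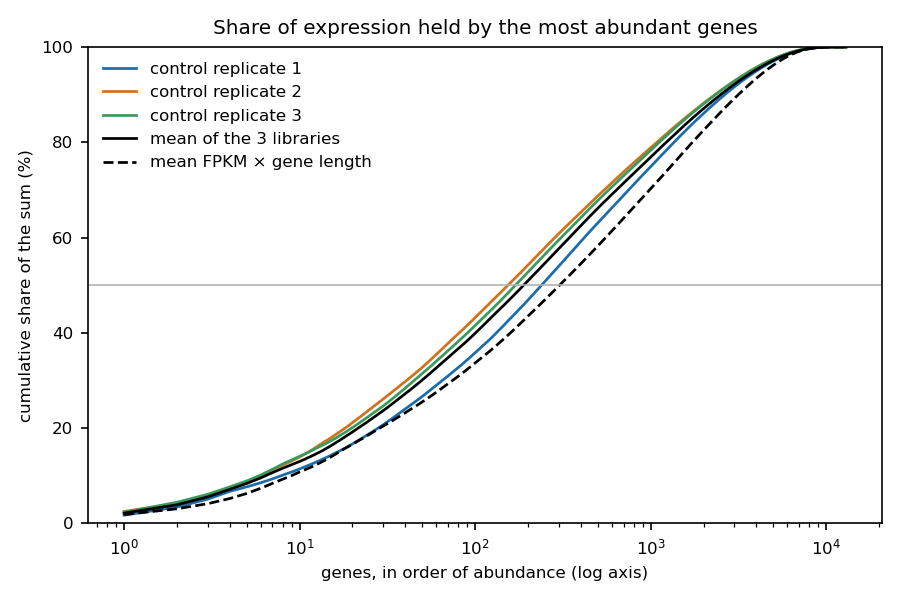
Cumulative share of the sum (percent) against the number of genes in order of abundance (log axis), for each control library, for their mean, and for the mean FPKM multiplied by gene length (dashed). The grey line at 50% is crossed at 154 to 239 genes in the single libraries and at 303 genes in the length-weighted curve.

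RNA that poly(A) enrichment is meant to remove was still present. The rRNA genes held 3.09%, 5.54% and 3.56% of the FPKM sum in replicates 1, 2 and 3, highest in replicate 2. Weighted by gene length these shares were 6.21%, 11.9% and 7.27%. Of the nuclear rRNA genes, 4 copies of 1797 bases on chromosome 4 (AKAW2_r40003A, AKAW2_r40006A, AKAW2_r40009A and AKAW2_r40012A) had means between 9652 and 9713 FPKM. The last 3 of them held the same value in each library, which is what an even split of reads between copies gives, so their single values are uncertain. Of the 267 tRNA genes, 266 were listed at 0, and AKAW2_t40008A was above 0 only in replicate 2 (189 FPKM).

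The mitochondrial genome held 1.09%, 1.32% and 1.29% of the sum, nearly all of it in 2 genes. The first was orf2 (759 bases, mitochondrial positions 3758 to 4516), at 8511, 10271 and 11411 FPKM. Its neighbours on the same strand were low, with orf1 at 0.62, 0.35 and 0.87 FPKM and nad4, a subunit of complex I, at 1.88, 2.48 and 2.74 FPKM. The second was the rRNA gene EJ508_mgr02, with 7689, 9201 and 8556 FPKM. Against these levels the 14 mitochondrially encoded genes of the respiratory chain and ATP synthase had a median of 1.25 FPKM. The highest of those was atp9, a subunit of ATP synthase, at 42.9, 39.5 and 5.66 FPKM, and nad3 and atp8 were listed at 0. Mitochondrial transcripts of fungi carry no long poly(A) tail, so the enrichment step bears on these levels, and how far was not tested.

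Among the 26 gene lists, which hold only genes with a symbol, cytosolic ribosomal proteins were the most abundant. All lists together held 16.4% ± 0.708 of the FPKM sum, and all genes with a symbol held 32.8% ± 0.889. Most of the sum was thus not grouped by function. The 58 cytosolic ribosomal protein genes held 6.93%, 7.86% and 8.11% of the FPKM sum, a mean of 7.63% ± 0.623 (SD, n = 3), although they were 0.448% of all genes. Their median was 1211 FPKM, against 12.6 FPKM over all protein-coding genes and 46.2 FPKM over those with a symbol. Of the 58 genes, 56 had a mean of at least 100 FPKM. RPL39, RPL32 and RPL36 were the highest. RPL36 stood at 4244, 4796 and 5361 FPKM. The lowest, chosen after their values were seen, were RPS28A at 85.3 ± 16.2, RPS12 at 86.8 ± 15.97 and RPL22 at 108 ± 24.5 FPKM, so levels within this list differed 296-fold between RPL39 and RPS28A. That ratio was 345, 308 and 253 in replicates 1, 2 and 3.

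Translation factors (22 genes) held 0.868% ± 0.0714 of the sum. TEF1, the elongation factor that brings aminoacyl-tRNA to the ribosome, stood at 2168, 2476 and 2574 FPKM. The initiation factors SUI1 and TIF11 had means of 2083 ± 192 and 1989 ± 250 FPKM. Ribosome biogenesis genes (72) were lower per gene, with a median of 64.0 FPKM. Among them cbf5, the pseudouridine synthase of small nucleolar particles in yeast, stood at 867, 1640.5 and 1670.5 FPKM. nop58, a core protein of another class of these particles, stood at 319, 669 and 626 FPKM, and EBP2 at 274, 596 and 561 FPKM. In all 3 of these genes replicate 1 was well below the other libraries.

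Nuclear genes of the respiratory chain and ATP synthase (42) were the second most abundant list, with 1.80% ± 0.253 of the sum and a median of 256 FPKM. CYC1 was the highest of them, followed by ATP16, a subunit of ATP synthase, at 2097, 2045 and 2191 FPKM. QCR7, a subunit of complex III, stood at 1938, 2056 and 1884 FPKM. cox5b, a subunit of cytochrome c oxidase, varied least of the list's named genes, with 766, 774 and 778 FPKM. The alternative oxidase gene AOX1_2, which the naming rule did not select, stood at 780, 1232 and 1028 FPKM. Its product passes electrons from ubiquinol directly to oxygen, and the copy named AOX1_1 was listed at 0 in every library.

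All 11 genes of glycolysis and gluconeogenesis had a mean of 98.7 FPKM or more, and together they held 0.314% ± 0.0116 of the sum. gpdA, glyceraldehyde-3-phosphate dehydrogenase, stood far above the others at 2486, 3147 and 2946 FPKM. FBA1 (aldolase) followed with 552 ± 37.7 FPKM, and pgkA (phosphoglycerate kinase) with 184 ± 5.95 FPKM. TAL1, the transaldolase of the pentose phosphate pathway, reached 2674 ± 640.4 FPKM, while GND1 and ZWF1 of the oxidative branch of that pathway stood at 261 ± 50.6 and 166 ± 5.67 FPKM. PDC1, pyruvate decarboxylase, the enzyme that leads from pyruvate to acetaldehyde, was more abundant than each of these 11 genes, at 3977, 6305 and 5708 FPKM. ADH1_3, an alcohol dehydrogenase, stood at 490, 609 and 635 FPKM. Its relatives ADH1_1 and ADH1_2 were at 0.0267 FPKM and at 0.

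The 23 genes of the tricarboxylic acid and glyoxylate cycles held 0.359% ± 0.0264 of the sum, with a median of 195 FPKM. IDH2, a subunit of the mitochondrial isocitrate dehydrogenase, was the highest, at 1233, 1321 and 1277 FPKM, and its partner IDH1 stood at 426 ± 30.9 FPKM. The next genes bear on citrate and, apart from cit1 and YHM2, were chosen after their values were seen. cit1 (citrate synthase) stood at 399, 507 and 450 FPKM, and acoA (aconitase, which consumes citrate) at 242, 513 and 359 FPKM. YHM2, named after a yeast carrier that exports citrate from mitochondria, stood at 660, 383 and 555 FPKM, and the citrate carrier gene ctpA at 20.4, 28.2 and 26.3 FPKM. YHM2 and cit1 are neighbours on chromosome 4 (1830368 to 1835354), but their ratio went from 1.65 in replicate 1 to 0.757 in replicate 2 and 1.23 in replicate 3. The genes of the ATP citrate lyase subunits, ACL1 and aclA, are divergent neighbours on chromosome 8, with means of 165 ± 21.7 and 253 ± 32.7 FPKM. Their ratio was steadier, at 0.694, 0.636 and 0.635.

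Among the lists, genes of protein folding and turnover came next in abundance. Chaperone genes (38) held 0.948% ± 0.0926 of the sum, led by cyp4, which carries the name of a fission yeast cyclophilin (3429 ± 746 FPKM), HSP10 (2322 ± 495 FPKM) and CDC37 (1541 ± 517 FPKM). The 25 proteasome genes held 1.22%, 0.688% and 0.933%, and without replicate 1 their share (0.813%) was below that of the translation factors (0.901%). Among them pre5, a core subunit, stood at 3636, 2020.3 and 2860.2 FPKM. pre3 and pup2, other core subunits, had means of 1410.2 ± 559 and 1232 ± 372 FPKM. Among ubiquitin-conjugating enzymes UBC4 stood at 2435 ± 176 FPKM and UBC1 at 802 ± 359 FPKM. Thioredoxin TRX2 (2363 ± 321 FPKM) and peroxiredoxin PRX1_1 (1796 ± 164 FPKM) led the antioxidant enzymes. All 5 histone genes with a symbol were above 100 FPKM. HTA1 (histone H2A) had a mean of 1468 ± 161 FPKM and its divergent neighbour HTB1 (histone H2B) 436 ± 11.9 FPKM.

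Actin, act1, stood at 886, 779 and 883 FPKM, and the actin-binding profilin pfy1 at 1241, 638 and 1014 FPKM. In ergosterol synthesis erg20, which makes farnesyl diphosphate, stood at 1344, 572 and 819 FPKM and squalene synthase erg9 at 270.1, 459 and 483 FPKM. ERG9_1, ERG7_1 and ERG7_2 were listed at 0. Cell wall genes were led by ecm33 (1095 ± 104 FPKM), gfa1, the first enzyme of chitin precursor synthesis (506 ± 64.3 FPKM), and the glucan-remodelling GAS1_4 (425 ± 67.4 FPKM). For nitrogen, DAL2, named after a yeast enzyme of the allantoin degradation pathway, had 829.6 ± 90.9 FPKM and glutamine synthetase glnA 734 ± 101 FPKM. The ammonium transporter AMT1, picked with its values in view, stood at 104, 6.24 and 77.9 FPKM and was far lower in replicate 2. The nitrate assimilation neighbours niaD and niiA, chosen likewise, had means of 144 ± 60.5 and 18.3 ± 7.95 FPKM, and both were lowest in replicate 2.

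Genes of secreted carbohydrate-degrading enzymes were low except for a few. The 16 with a symbol had a median of 2.06 FPKM and held 0.10015% ± 0.0102 of the sum, and AMY1 made up 77.5% of the list's mean FPKM sum. AMY1, an alpha-amylase, stood at 1306, 1192 and 1022 FPKM. The endoglucanase egl3 followed at 200, 190 and 247 FPKM and the pectin methylesterase pmeA at 51.4 ± 6.47 FPKM. Among 13 proteases and peptidases lap1 (leucine aminopeptidase) stood at 447, 227 and 197 FPKM, PEP1 at 284, 66.2 and 123.5 FPKM and PEP2 at 158, 117 and 110.2 FPKM. In all 3 of these protease genes replicate 1 was the highest. Of the sugar transporters, HXT1 stood at 413 ± 38.7 FPKM, RGT2 at 163 ± 108 FPKM and hxt8 at 1.54 ± 2.20 FPKM. Many secreted enzymes carry no symbol in the reference and are not in these counts.

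Genes that mark spore formation were present at low to moderate levels. brlA, the regulator that starts conidiophore formation in Aspergillus nidulans, stood at 1.32, 1.05 and 1.07 FPKM, a level of few fragments. The later regulators abaA and wetA stood at 12.4, 23.6 and 35.3 FPKM and at 9.50, 7.59 and 13.7 FPKM. The upstream regulators fluG and flbB had means of 352 ± 40.7 and 51.7 ± 3.10 FPKM, and CON10, named after a conidiation gene of Neurospora, 41.7 ± 10.1 FPKM. Other upstream regulators of the list, added with their values in view, were lower. flbD stood at 4.53, 11.1 and 6.52 FPKM and flbA at 5.84, 7.99 and 7.09 FPKM. CON6, rodA, dewA and matA are not symbols in the reference and were not read. Of the genes known from sexual development, nsdD stood at 22.7 ± 4.09 and steA at 15.9 ± 4.58 FPKM, and the mating-type gene MAT1-2-4 was listed at 0. pksP, the polyketide synthase of conidial pigment in other Aspergillus species, stood at 0.61, 0.60 and 0.43 FPKM. In a bulk library fewer cells of a type and less RNA per cell cannot be told apart.

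The 8 secondary metabolite enzymes with a symbol held 0.00452% ± 0.00100 of the sum, with a median of 3.395 FPKM. The highest was adaB, at 57.6, 34.4 and 42.5 FPKM, followed by nscC at 5.41, 3.49 and 16.9 FPKM and gliI at 8.43, 3.45 and 3.88 FPKM. None of the 8 was at 0 in every library, and of all genes with a symbol only 1.16% were. All 30 chromatin and velvet regulators had a mean of at least 1 FPKM, as had 2155 of the 2243 genes with a symbol. Their median was 18.4 FPKM, and their share differed little between libraries (0.0676% ± 0.00102). HOS4 (226 ± 14.2 FPKM), the histone chaperone spt16 (143 ± 18.1 FPKM) and SWD3 (87.7 ± 19.4 FPKM) were the highest. Among genes chosen after their values were seen, the velvet regulator veA stood at 34.4 ± 2.77 FPKM. clrD, the histone H3 lysine 9 methyltransferase of Aspergillus heterochromatin, stood at 5.19, 9.04 and 4.37 FPKM.

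**Figure D3:**
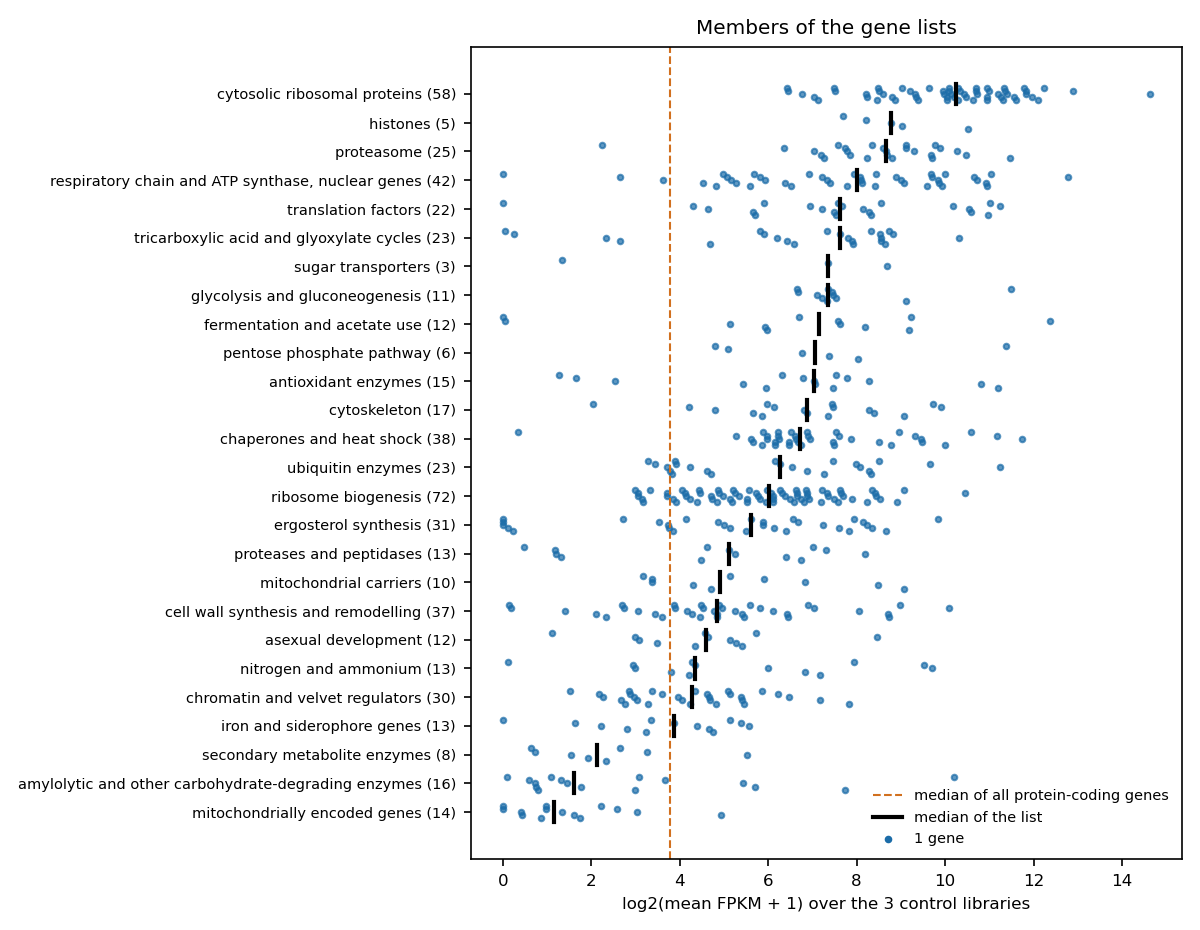
Mean level of each member of the 26 gene lists (number of genes in brackets) as log2(mean FPKM + 1) over the 3 control libraries; black ticks are list medians and the dashed line is the median of all protein-coding genes. Cytosolic ribosomal proteins have the highest list median (1211 FPKM), and amylolytic, secondary metabolite and mitochondrially encoded genes lie mostly to the left of the dashed line (12.6 FPKM). List members all carry a symbol, and the median of all protein-coding genes with a symbol is higher, at 46.2 FPKM.

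Expression was spread unevenly over the chromosomes. Chromosome 1 held 15.99% ± 0.197 of the FPKM sum (SD, n = 3) with 16.6% of the genes. Chromosome 7 held 11.99% with only 8.42% of the genes, and chromosomes 5 and 8 held less than their share of genes, 11.7% from 16.3% and 8.63% from 11.1%. Without the 100 most abundant genes chromosome 7 held 9.67%, chromosome 5 held 13.2% and chromosome 8 held 11.6%, so chromosome 8 was then above its share of genes. Chromosome 4 came second with 14.01% ± 1.11, of which its rRNA genes made up 3.50 points, and it was highest in replicate 2. Among nuclear genes without rRNA and tRNA genes, chromosome 4 held 11.04% and fell to place 7 of 8, and without the 100 most abundant genes it held 9.61% and came last. Weighted by gene length, in which the rRNA genes count more, it held 17.6% and came first, ahead of chromosome 1 with 15.6%, and chromosome 7 came to place 7 with 10.1%. AKAW2_11660A and AKAW2_10485S were the most abundant genes of chromosome 1, AKAW2_20858S and CYC1 of chromosome 2, and AKAW2_40061A and AKAW2_40642S of chromosome 4. On chromosome 3 they were hel10 (6546 ± 1841 FPKM) and AKAW2_30559S (5754 ± 180.1 FPKM). Chromosome 8 was led by AKAW2_81018A (5868 ± 228 FPKM) and AKAW2_80827S (5076 ± 831 FPKM).

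The typical gene followed another order. The median over protein-coding genes was highest on chromosome 2 (18.9 FPKM), followed by chromosome 7 (17.1), chromosome 3 (16.7) and chromosome 1 (15.9). It was lower on chromosomes 4 (10.5 FPKM), 6 (8.60), 8 (7.49) and 5 (7.15). These are medians of each gene's mean level. Without replicate 1 their order was the same, with 17.4 FPKM on chromosome 2, 16.3 on chromosome 7, 9.44 on chromosome 4 and 6.62 on chromosome 5. In single libraries, however, chromosome 3 lay above chromosome 7 each time. Its medians were 18.6, 16.5 and 16.3 FPKM in replicates 1, 2 and 3, against 16.85, 15.5 and 16.0 FPKM on chromosome 7. In replicate 1 chromosome 1 (17.4 FPKM) was above chromosome 7 as well. The share of protein-coding genes listed at 0 in all 3 libraries ran from 6.05% on chromosome 3 to 13.4% on chromosome 5. Levels were also low near the outermost genes of the chromosomes. Of 299 protein-coding genes within 50 kb of the outermost annotated gene end, 25.8% were listed at 0, the median was 0.437 FPKM, and none was among the 100 most abundant. Of 610 genes from 100 to under 200 kb away, 13.0% were listed at 0, the median was 4.35 FPKM, and 6 were among the 100 most abundant. Of 9732 genes at least 500 kb away, 7.83% were listed at 0, the median was 15.9 FPKM, and 77 were among the 100. With so small a part of all genes among the 100, their absence near the ends is not read as a result.

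The low median of chromosome 5 came from 1 end of it, a region chosen after its values were seen. The low share of the FPKM sum was not confined to this end. Its first 2 Mb held 3.65% of the sum with 5.11% of all genes, and the whole chromosome held 11.7% with 16.3%. In the first 2 Mb, 656 protein-coding genes had median levels of 0.565, 0.680 and 0.680 FPKM in replicates 1, 2 and 3, and 28.0% were listed at 0 in all 3. In the other 1421 genes of the chromosome the medians were 15.1, 13.1 and 13.8 FPKM, and 6.62% were listed at 0. Of 77 windows of 500 kb with at least 50 protein-coding genes, that from 1000001 to 1500000 had the lowest median, 0.328 FPKM over 178 genes, and all 4 windows of this region were among the lowest 7. Only 0.305% of the region's genes had a symbol, against 18.7% in the rest of the chromosome. The most abundant gene of the whole transcriptome, AKAW2_50053A, lies in this region and made up 59.1% of its mean FPKM sum. Its immediate neighbours AKAW2_50052S and AKAW2_50054S had means of 0.190 and 2.58 FPKM. A further group of 3 adjacent genes there, AKAW2_50318A, AKAW2_50319S and AKAW2_50320S, stood at 2035 ± 248, 1030.5 ± 172 and 3533 ± 477 FPKM.

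**Figure D4:**
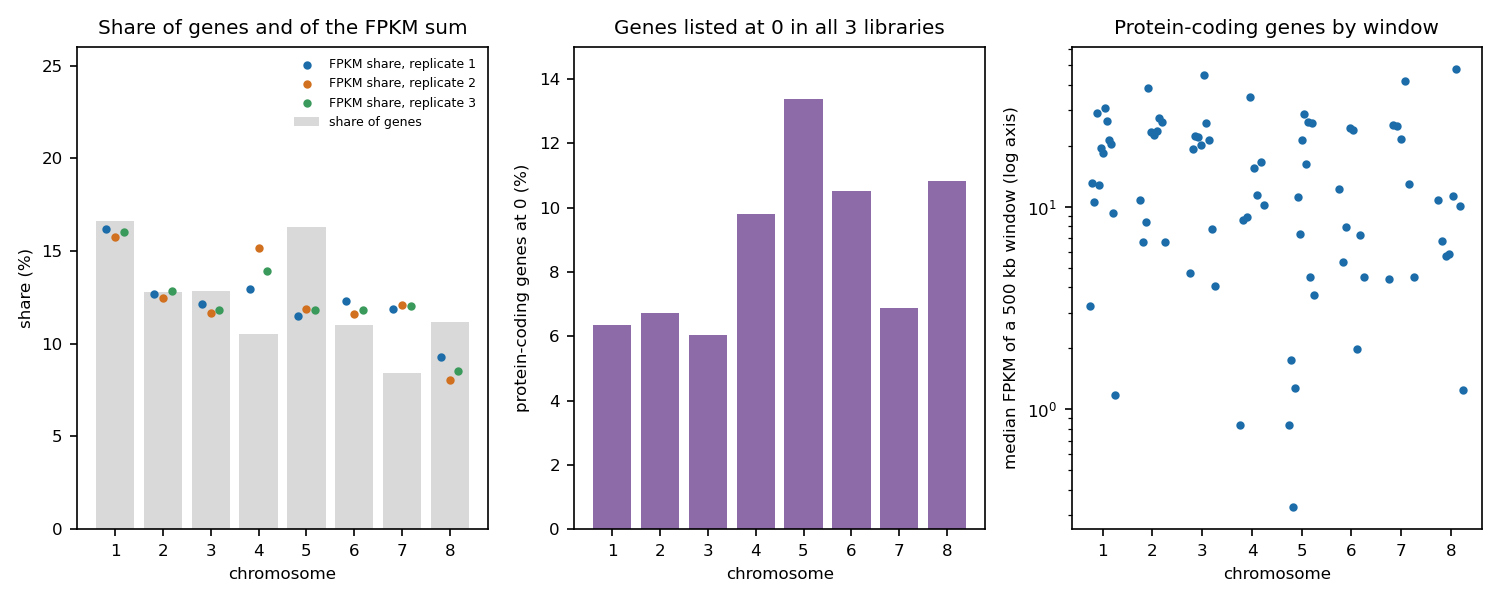
Left, share of all genes (bars) and share of the FPKM sum in each library (points), in percent, by chromosome; middle, percent of protein-coding genes listed at 0 in all 3 libraries; right, median FPKM (log axis) of protein-coding genes in each 500 kb window, with windows of a chromosome in their order. Chromosome 5 has the highest share at 0 (13.4%) and the lowest window (0.328 FPKM).

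In all, 1391 genes (10.7%) were listed at 0 in all 3 libraries, 266 of them tRNA genes and 1125 protein-coding. Single libraries listed 2073, 2163 and 2062 genes at 0. Protein-coding genes at 0 were short, with a median of 579 bases against 1374 for the others, and 304 of them were at least 1000 bases long. They were mostly genes without a symbol, 10.5% of those against 1.16% of genes with a symbol. A further 1409 genes were at 0 in some libraries only, and in 868 of these the highest library was under 1 FPKM, which is a level of few fragments. With a limit of under 1 FPKM in all 3 libraries, 2705 genes counted as silent. The floors given in fragments cover counting error only, since PCR reads without molecular identifiers are not independent molecules.

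Silent genes lay in runs in places. There were 10 runs of at least 5 neighbouring genes at 0 in all libraries. Of the 10, 6 lay in the first 2 Mb of chromosome 5, which has 5.11% of all genes. The longest comprised 7 genes, AKAW2_50368A to AKAW2_50374S (chromosome 5, 1039938 to 1048434). Under 1 FPKM in all 3 libraries there were 63 such runs with 407 genes, and 15 of the 63 lay in the first 2 Mb of chromosome 5. The longest of the 63 comprised 15 genes, AKAW2_80731A to AKAW2_80745A (chromosome 8, 2042873 to 2086600). Some genes could not be told from another by their values. Among genes with a mean of at least 1 FPKM, 57 shared all 3 values with another gene, in 27 sets, and in 17 sets the genes also had the same length, so reads may have been split between copies.

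The 26 silent genes with a symbol included single genes with known roles, chosen after their values were seen unless they belong to a list. LIG4 (chromosome 4, 581206 to 584235, 3030 bases) encodes DNA ligase IV, which seals breaks in non-homologous end joining. It was listed at 0 in every library, where 3 fragments would give 0.274, 0.304 and 0.262 FPKM at its length. Of the genes on either side, AKAW2_40230A stood at 42.7, 24.3 and 28.9 FPKM. AKAW2_40228A stood at 1.6, 1.34 and 0.37 FPKM, where 3 fragments would give 1.09, 1.21 and 1.05 FPKM. Lack of expression and lack of the gene in this strain cannot be told apart from these values. The pheromone receptor gene preB was at 0 and its counterpart STE3 at 8.25 ± 1.503 FPKM. The siderophore transporter gene ARN1_1 was at 0 as well, while the iron regulator sreA stood at 46.2 ± 8.86 FPKM.

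Where several genes carry the same symbol with a number, the order of the copies was mostly the same in every library. Among 77 such families whose top member had a mean of at least 10 FPKM, the same member was on top in all 3 libraries in 66, and it made up at least 95% of the family's sum in every library in 24. TEF3_1, elongation factor 3, stood at 690, 1386 and 1420.4 FPKM and TEF3_2 at 0. kgd1, a subunit of 2-oxoglutarate dehydrogenase, stood at 159 ± 27.1 FPKM and KGD1_2 at 0.0267 FPKM. In 6 families the top member made up less than 60% of the sum on average over the libraries. ERG11_1 and ERG11_2, lanosterol demethylases and the targets of azole antifungals, stood at 245 ± 14.1 and 226 ± 59.0 FPKM. GAS1_4 and GAS1_1 stood at 425 ± 67.4 and 419.7 ± 71.5 FPKM. These family examples were chosen after their values were seen, and reads of near-identical copies could be split or misplaced by the counting.

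The spread between libraries fell with abundance. The median coefficient of variation was 37.1% for genes with a mean of 1 to 10 FPKM, 23.0% from 10 to 100, 20.6% from 100 to 1000 and 16.4% above 1000. The median SD of log2(FPKM + 1) was 0.34 over 9706 genes. Among genes of at least 100 FPKM the steadiest were UBC12, which activates cullin ligases by attaching a ubiquitin-like protein (315, 317 and 319 FPKM), and SHM1, a serine hydroxymethyltransferase (283, 285 and 281 FPKM). HEK2, an RNA-binding protein in yeast, stood at 136, 135 and 134 FPKM. AKAW2_10819A and AKAW2_11840S completed the 6 together with cox5b, with coefficients of variation from 0.575% to 0.797% over the 6.

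The most variable genes mostly had their highest value in replicate 1. Of the 30 genes with a mean of at least 100 FPKM and a coefficient of variation above 100%, 28 were highest in replicate 1. Of the 170 above 50%, 133 were highest in replicate 1. Over all 2036 genes with a mean of at least 100 FPKM, replicate 1 was the highest in 935. fdh, formate dehydrogenase, stood at 579, 72.9 and 48.7 FPKM. AKAW2_21050S stood at 562, 20.4 and 41.9 FPKM, AKAW2_12053S at 907, 48.2 and 91.6 FPKM, AKAW2_10612A at 497, 11.5 and 68.1 FPKM, and AKAW2_71024A at 1534, 34.5 and 283 FPKM. In each of these 5 genes replicate 1 was more than 5-fold above both other libraries. AKAW2_31184S was the exception among the 6 most variable, with 11.9, 390 and 37.3 FPKM and its maximum in replicate 2.

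The libraries differed by gene group, and the groups below were chosen after these values were seen. All 25 proteasome genes were highest in replicate 1 and lowest in replicate 2. Of 72 ribosome biogenesis genes, 67 were lowest in replicate 1, and of 58 cytosolic ribosomal protein genes, 52 were lowest in replicate 1 and 46 highest in replicate 3. Over all 9706 genes with a mean of at least 1 FPKM, replicate 1 was the highest in 47.4% and the lowest in 30.6%. Replicate 2 was the lowest in 45.2% of these genes and replicate 3 the highest in 25.6%. The median deviation from the 3-library mean in log2(FPKM + 1) was -0.59 in replicate 1 for ribosome biogenesis and 0.36 for the proteasome, against 0.09 over all genes. Nitrogen and ammonium genes deviated by 0.52 in replicate 1 and by -0.74 in replicate 2. With 3 libraries of 1 strain these are descriptions, and their source was not tested.

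**Figure D5:**
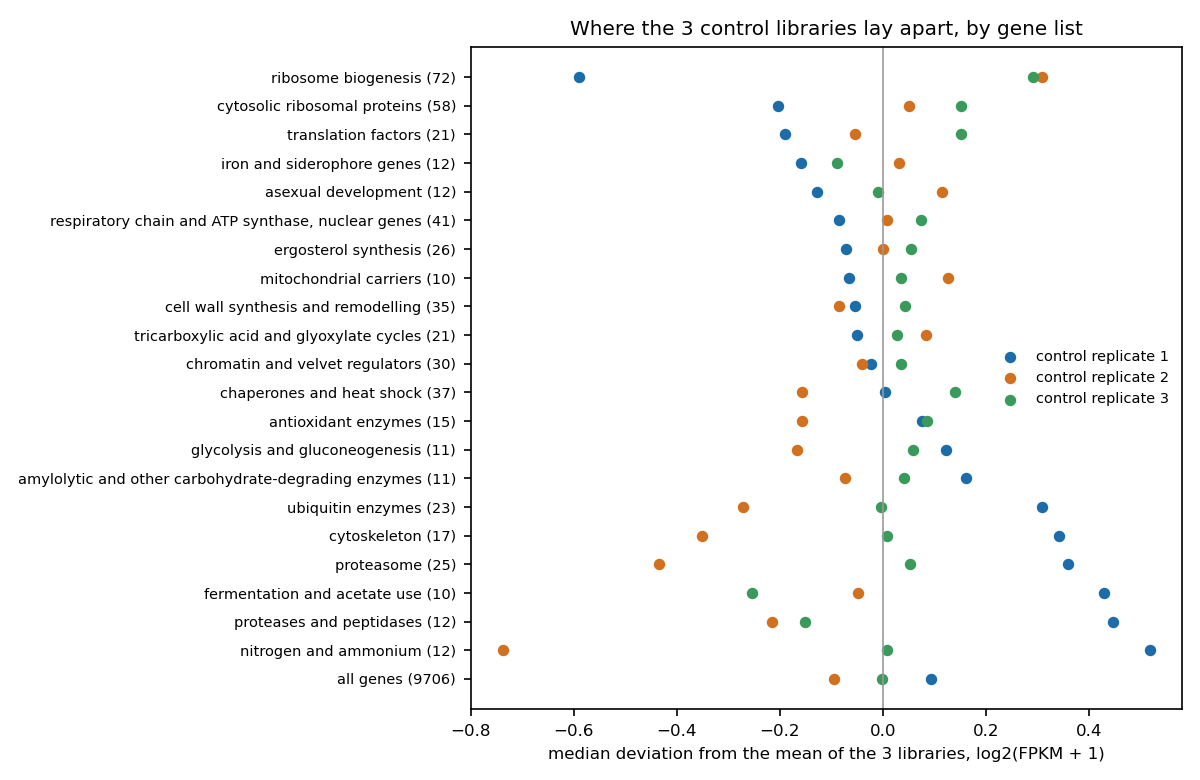
Median over the members of each gene list (members with a mean of at least 1 FPKM in brackets; lists with at least 10 such members) of the deviation of each control library from the mean of the 3, in log2(FPKM + 1). Replicate 1 ranges from -0.59 for ribosome biogenesis to 0.52 for nitrogen and ammonium genes, and replicate 2 is at -0.74 for the latter.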

How the data were processed

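Per the labels' protocols, stranded libraries were prepared from poly(A)-selected RNA. The authors deposited 1 table of FPKM values from RSEM with a column for each library; only the 3 control columns were used. Tools that the submitters' processing notes list without roles are RSEM 1.3.1, STAR 2.7.9a and featureCounts 2.0.1, and for reads cutadapt 3.7, Trimmomatic 0.39, Trim Galore 0.6.7 and FastQC 0.11.9. No genome build is given in the labels or the file. All 12941 gene IDs matched the reference table of symbols, 12936 with the same start and end. The deposited gene length equals the genomic span in these 12936 genes; the other 5 are listed on 2 segments, whose lengths were summed.

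FPKM are not counts and are scaled by each library's own total, so a few abundant transcripts lower all others. Read totals were not used; low-value steps gave relative depth. At most 0.248% of values above 0 were equal between 2 libraries, so no library was a copy of another. The computed values were means, SDs (n = 3), coefficients of variation, and shares of the FPKM sum. An exact 0 is described as listed at 0. There is 1 group, so nothing was tested. Shares and ranks were checked on simulated tables.

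The named genes are the 25 highest means, the 2 most abundant of each chromosome, the 3 highest of each of 26 lists and list members at 0 (up to 5), and, at a mean of at least 100 FPKM, the 6 largest and 6 smallest coefficients of variation. Other genes were chosen after their values were seen. The lists are symbol patterns, trimmed of wrong matches after symbols and values were seen; members and lists were chosen with earlier results of these data known. Alternatives were scaling every library to the same sum, median-ratio size factors, medians over libraries, nuclear genes without rRNA and tRNA genes, pseudocounts of 0.1 and 5, limits on low values, leaving out each library and, added after seeing the data, weighting by length. Software was Python 3.11.15, numpy 2.4.6, pandas 2.3.3 and matplotlib 3.10.9.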

Additional observations from a re-analysis of the deposited data

How the results depend on the processing

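Rescaling each library to the same sum or by median-ratio size factors moved none of the shares, counts or spreads it was run on by more than the spread between libraries, or a count by 1.5 times. Weighting by gene length, chosen after seeing the data, lowered the share of the 10 most abundant genes from 13.0% to 10.8% and of the 100 most abundant from 39.9% to 33.7%. It raised the number of genes that hold 50% from 189 to 303, put chromosome 4 (17.6%) ahead of chromosome 1 (15.6%), and lowered cytosolic ribosomal proteins from 7.64% to 6.61%. Over nuclear genes without rRNA and tRNA genes chromosome 1 held 16.8%. The median of chromosome 2 rose to 28.3 FPKM over genes with a mean of at least 1 FPKM, and lay between 17.4 and 19.2 FPKM when a library was left out, lowest without replicate 1. Silent genes numbered 2705 at under 1 FPKM in all 3 libraries. The median SD was 0.26 with a pseudocount of 5, and from 0.21 (without replicate 1) to 0.36 with 1 library left out. With a library left out each SD rests on fewer values than in the main result (0.34), so the sizes are not directly comparable. Leaving out a library gave 12.5% to 13.9% for the first 10 genes, 38.6% to 42.2% for the first 100, and 163 to 205 genes for 50%. Of the other values, for single chromosomes, lists and the 25 most abundant genes, 245 stayed within these limits and 58 moved, more of them under length weighting than under any other setting. No paired analysis was possible because only 1 group was described and no test was run. Depth limits statements on genes under about 1 FPKM, where a 0 does not show absence.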
